A study of Homo sapiens with 6 samples.

Results

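The genes described here encode the nuclear subunits of the mitochondrial respiratory chain, and were taken by symbol from the array's gene annotation. Symbols that start with NDUFA, NDUFB, NDUFC, NDUFS or NDUFV, that are SDHA to SDHD, or that start with UQCR, COX4, COX5, COX6, COX7 or COX8 were included, and the NDUFAF assembly factors were left out. The choice used no measured value. It gave 66 genes with 80 probes, of 20045 genes on the array. Complex I held 37 of these genes, complex II 3, complex III 9 and complex IV 17. NDUFB2-AS1, a noncoding RNA, and UQCRBP1, a pseudogene, are members by their symbols and encode no subunit. UQCRHL is a near-copy of UQCRH and UQCRBP1 of UQCRB, and SDHA has pseudogene copies, so probes of these genes may also bind the copies' transcripts.

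The respiratory chain of the inner mitochondrial membrane carries electrons to oxygen and pumps protons, and ATP synthase uses the proton gradient to make ATP. Complex I takes electrons from NADH, complex II from succinate, complex III passes them to cytochrome c, and complex IV reduces oxygen. Most subunits are encoded in the nucleus, a few of the catalytic ones in the mitochondrial genome, and some subunits of complex IV have separate forms for muscle, lung or testis.

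All samples were cells of PEO4, a cell line from high-grade serous ovarian cancer, infected with lentiviral shRNA and selected in puromycin. A pair of groups carried an shRNA against SHMT1, the cytosolic serine hydroxymethyltransferase, which the labels call F11 and F12, and the third group carried a nonspecific shRNA, called NS. Each group was measured on 2 Illumina HumanHT-12 arrays, and the comparison asks which mRNAs differ once SHMT1 is knocked down. The sources used here do not tell which of the study's numbered shRNAs F11 and F12 are. Nor do the labels state that replicate samples are separate cultures, so the p-values reflect the spread among these arrays alone, and that spread may be technical.

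SHMT1 had intensities of 291 and 342 with F11 and 434 and 442 with F12, against 542 and 544 with NS. The log2 difference was -0.78 with F11 (adjusted p = 0.00534, and 0.0541 without NS replicate 1 and 0.0583 without NS replicate 2) and -0.31 with F12 (adjusted p = 0.213). All 4 SHMT1 shRNA arrays were below both NS arrays. Any 2 arrays correlated across all probes with r of 0.991 to 0.997. All 8 markers of serous carcinoma epithelium were above the background limit on all 6 arrays, and 3 of them moved with an shRNA. The keratins KRT7 and KRT8 were lower with F11 than with NS (log2 differences of -0.59 and -0.61, adjusted p = 0.00554 and 0.0141), and MUC16, which encodes CA125, was lower with F12 (-0.55, adjusted p = 0.0197). Their part in the results for the respiratory chain genes was not tested. On at least 2 arrays, the limit was passed by 2 of 4 fibroblast markers, 0 of 3 endothelial markers, 0 of 3 markers of muscle and heart, and 1 leukocyte marker, the macrophage gene CD68, of 4. The fibroblast pair was COL1A1 and COL1A2, each above the limit on 4 arrays and near background on all 6. COL1A2, the brighter of them, read 115 and 106 with F11, 102 and 91.5 with F12 and 93.6 and 90.3 with NS, and did not pass with F11 (log2 difference 0.26, adjusted p = 0.139) or F12 (0.07, adjusted p = 0.787). In RNA from whole cultures, fewer cells of a type and less RNA per cell cannot be told apart, and quantile normalization makes every level relative to the other probes.

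Of the 66 genes, 57 had a probe above the background limit, an intensity of 91.6 on at least 2 arrays of any group, and were tested through their brightest such probe. Complex I had 34 tested members, complex II 3, complex III 9 and complex IV 11. The 9 genes not tested were at or near background on all 6 arrays. They included COX4I2, the lung form of a complex IV subunit, COX6A2 and COX7A1, the forms of heart and skeletal muscle, and COX6B2, COX7B2 and COX8C, forms of testis. The counterparts used in most tissues were all above the limit. COX4I1 gave 2596 and 3035 with F11, 2793 and 2763 with F12 and 2805 and 2866 with NS. COX6A1 gave 1975 and 2279 with F11, 2205 and 2112 with F12 and 2059 and 2209 with NS. COX6B1 gave 3538 and 3818 with F11, 3323 and 3466 with F12 and 3681 and 3358 with NS. PEO4 cells thus had a signal for the general form and none above background for the tissue form in each of these pairs, in all 3 groups. The complex I genes NDUFA5 and NDUFS6 were also not above the limit, with intensities of 82.7 to 86.1 and 76.4 to 84.2, and neither was NDUFB2-AS1. These genes have only a bound here, and no fold is given for them. NDUFB4 and NDUFC2 passed the limit on 2 and 3 arrays. NDUFS1, the largest iron-sulfur subunit of complex I, had intensities of 95.9 to 109, NDUFB1 of 101 to 116 and UQCR11 of complex III of 117 to 131. These genes lie close to the background mode of 85.7 and their differences are understated.

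**Figure D1:**
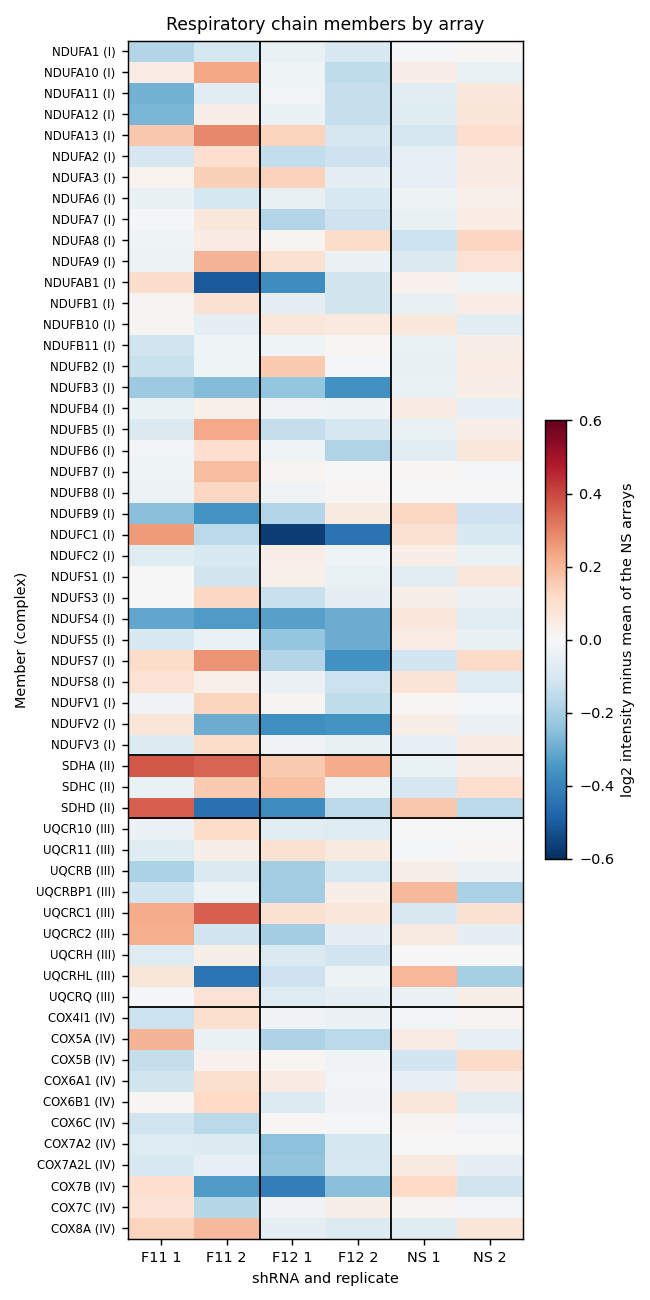
Each row is 1 of the 57 tested members, grouped by complex from I to IV, and each column is 1 array, in the order F11, F12 and NS. Colour gives the log2 intensity minus the mean of the 2 NS arrays, with red higher and blue lower than NS: SDHA is red on all 4 SHMT1 shRNA arrays, NDUFS4 and NDUFB3 are blue on all 4, and NDUFAB1, SDHD and UQCRHL differ in sign between the 2 F11 arrays.

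At the adjusted threshold, 1 respiratory chain gene, SDHA, was higher and 1, NDUFS4, lower with F11 than with NS. No member passed with F12 or in the average of both shRNAs, though the NDUFS4 estimate with F12 was nearly the same as with F11. SDHA is the flavoprotein of complex II that oxidizes succinate, and NDUFS4 is an accessory subunit of complex I whose loss causes Leigh syndrome. The 2 of 57 members called with F11 were 3.51%, and 3.58% of all 12882 tested genes were called, 1.82% higher and 1.75% lower. With F12, 0 of 57 passed against a background of 0.846% (0.303% higher and 0.543% lower), and in the average 0 of 57 against 0.644% (0.21% higher and 0.435% lower). With no adjustment, at p under 0.05, limma gave 3 higher and 5 lower members with F11 (5.26% and 8.77%, against 10.6% and 8.38% of all tested genes). With F12 it gave 1 higher and 8 lower of 57, against 6.94% and 6.53%, and in the average 2 and 5 of 57 (3.51% and 8.77%, against 6.91% and 5.77%). At the adjusted threshold the share of members called was no larger than the background in any of these comparisons. The F11 and F12 comparisons share the 2 NS arrays, so their values stand side by side here and are not independent.

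SDHA (chromosome 5) had intensities of 849.5 and 836 with F11, 730.3 and 766 with F12 and 638 and 674 with NS. Both F11 arrays were the highest, both F12 arrays lay between, and the groups did not overlap. With F11 SDHA was 1.28-fold of NS (log2 difference 0.36, standard error 0.06, adjusted p = 0.0274). With F12 the log2 difference was 0.19 (standard error 0.06, adjusted p = 0.299). The second SDHA probe, which did not pass, read 454 and 498 with F11, 423 and 367 with F12 and 392.2 and 453 with NS, and both F11 arrays lay above both NS arrays, 1 of them only just (log2 difference 0.17, 95% interval -0.06 to 0.41, adjusted p = 0.496). With F12 the estimate at that probe was -0.10, opposite in sign to the brighter probe.

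NDUFS4 (chromosome 5) had intensities of 1263 and 1241 with F11, 1254 and 1275 with F12 and 1639 and 1502 with NS. The 4 SHMT1 shRNA arrays lay within a narrow band below both NS arrays. With F11 NDUFS4 fell to 0.80-fold of NS (log2 difference -0.33, standard error 0.0629, adjusted p = 0.0475). With F12 the estimate was nearly the same in size, -0.31 (standard error 0.0629), and did not pass (adjusted p = 0.115). In the average the log2 difference was -0.32 (adjusted p = 0.0794). Between F12 and F11 it was 0.01 (95% interval -0.13 to 0.16).

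Both F11 calls rest on all 6 arrays. Leaving out each array in turn, the adjusted p in F11 against NS was 0.0696 to 0.245 for NDUFS4 and 0.054 to 0.175 for SDHA, so each of the 6 fits lost both calls. With only the F11 and NS arrays fitted they were 0.128 and 0.0837.

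The promoters of these genes are shown because the members called, and the member of widest spread, differ in matches to elements that some nuclear respiratory genes carry. Each run is the 250 bases before the RefSeq start (GRCh38.p14, plus strand, 5′ to 3′): SDHA at chr5:218070-218319, NDUFS4 at chr5:53560389-53560638, NDUFS7, a complex I core subunit, at chr19:1383657-1383906, and SDHD, a membrane anchor of complex II, at chr11:112086623-112086872. Capitals mark matches to the element of nuclear respiratory factor NRF1, which is GCGCA, any base and GCGC, and to CCGGAAG, the element of GABPA, searched on both strands with overlapping matches joined.
SDHA: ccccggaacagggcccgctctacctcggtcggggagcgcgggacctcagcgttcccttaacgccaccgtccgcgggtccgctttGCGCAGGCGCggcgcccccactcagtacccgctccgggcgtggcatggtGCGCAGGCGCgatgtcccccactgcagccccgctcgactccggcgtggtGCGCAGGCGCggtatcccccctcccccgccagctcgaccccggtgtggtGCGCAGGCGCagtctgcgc
NDUFS4: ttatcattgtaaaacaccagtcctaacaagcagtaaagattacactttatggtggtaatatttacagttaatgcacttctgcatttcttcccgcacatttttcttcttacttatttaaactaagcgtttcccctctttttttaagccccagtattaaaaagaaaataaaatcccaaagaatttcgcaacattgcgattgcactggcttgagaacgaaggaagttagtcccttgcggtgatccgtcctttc
NDUFS7: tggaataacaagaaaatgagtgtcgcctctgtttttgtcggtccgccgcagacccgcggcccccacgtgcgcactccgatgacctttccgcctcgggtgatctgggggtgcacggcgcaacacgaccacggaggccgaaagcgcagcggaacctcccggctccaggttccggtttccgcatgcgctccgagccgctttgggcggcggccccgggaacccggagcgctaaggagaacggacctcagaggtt
SDHD: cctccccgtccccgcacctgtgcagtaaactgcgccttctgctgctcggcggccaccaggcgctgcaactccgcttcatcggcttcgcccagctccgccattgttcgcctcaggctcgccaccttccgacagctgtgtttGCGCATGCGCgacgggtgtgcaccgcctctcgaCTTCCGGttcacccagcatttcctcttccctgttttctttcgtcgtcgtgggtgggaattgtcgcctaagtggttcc
The SDHA run held 4 NRF1 matches, which started at bases -166, -117, -68 and -19. SDHD held 1 NRF1 match at -110 and 1 GABPA match at -77, which reads CTTCCGG because it lies on the other strand. NDUFS4 and NDUFS7 held no match to these letters. Of 54 members with a promoter in the table, 10 (18.5%) held an NRF1 match and 13 (24.1%) a GABPA match. Of 15843 protein-coding promoters, 1382 (8.72%) held an NRF1 match and 2215 a GABPA match. The YY1 element AAGATGGCG was in 0 of 54 members and in 0.972% of all promoters. A match is a description of the letters only.

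**Figure D2:**
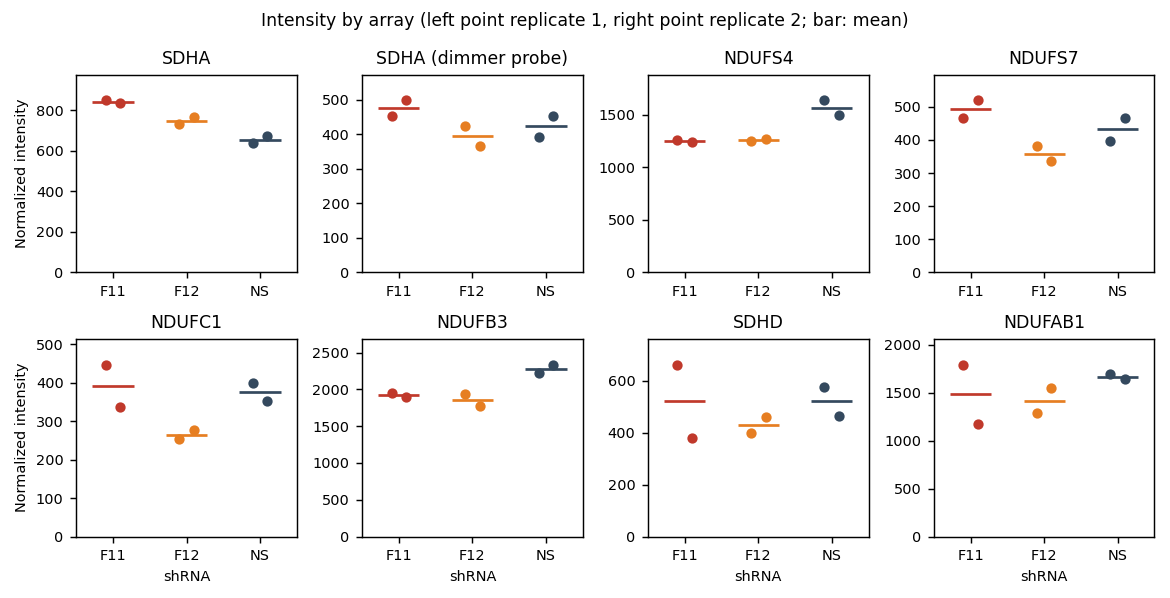
Normalized intensity of 7 members, with a second panel for the dimmer SDHA probe, for F11, F12 and NS, with the left point replicate 1, the right point replicate 2 and the bar the mean of the 2 arrays. The axes start at 0. NDUFS4 and NDUFB3 have all 4 SHMT1 shRNA arrays below both NS arrays, NDUFC1 is low with F12 only, and SDHD and NDUFAB1 vary most between the 2 F11 arrays.

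In complex I, no core subunit passed against NS. The core subunits encoded in the nucleus sit in the arm that takes electrons from NADH to ubiquinone. NDUFV1, which binds NADH, gave 1067 and 1186 with F11, 1094 and 972 with F12 and 1089 and 1073 with NS. NDUFS3 gave 1815 and 1981 with F11, 1656 and 1748 with F12 and 1864 and 1771 with NS. NDUFS8, an iron-sulfur subunit next to the quinone site, gave 4158 and 4002 with F11, 3818 and 3576 with F12 and 4129 and 3713 with NS. These 3 genes had log2 differences from NS of 0.06, 0.06 and 0.06 with F11 and -0.07, -0.09 and -0.08 with F12. NDUFV2, the other iron-sulfur partner of NDUFV1, had 1907 and 1474 with F11, 1403 and 1414 with F12 and 1856 and 1769 with NS. Both F12 arrays and 1 F11 array were low, and the F12 estimate of -0.36 (95% interval -0.63 to -0.10) did not pass (adjusted p = 0.291, and 0.0344 with only the F12 and NS arrays fitted).

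The accessory subunits of complex I, which surround the core, included NDUFS4, the 1 lower call, and the lowest estimate with F12. NDUFB3, of the membrane arm, had 1958 and 1903 with F11, 1936 and 1769 with F12 and 2218 and 2338 with NS at its brighter probe. Its second probe read 1863 and 1785 with F11, 1861 and 1689 with F12 and 2329 and 2129.6 with NS. All 4 SHMT1 shRNA arrays were below both NS arrays at both probes. The averaged log2 difference was -0.27 (adjusted p = 0.142) at the brighter and -0.31 (adjusted p = 0.132) at the dimmer probe, and neither passed. NDUFC1, another subunit of the membrane arm, had 447 and 335 with F11, 253 and 276 with F12 and 399 and 352 with NS. Its F12 arrays were both far below the others, for the largest estimate of any member with F12, -0.50 (95% interval -0.82 to -0.19, adjusted p = 0.222). With only the F12 and NS arrays fitted, NDUFC1 passed (adjusted p = 0.0302). NDUFB9 had 1773 and 1647 with F11, 1868 and 2189 with F12 and 2301 and 1939 with NS, with both F11 arrays below both NS arrays and the F12 arrays across their range (log2 difference -0.31, 95% interval -0.56 to -0.06, adjusted p = 0.226). NDUFS5 had 3444 and 3576 with F11, 3128 and 2989 with F12 and 3786 and 3562 with NS, and both F12 arrays were below the rest (log2 difference -0.26, 95% interval -0.41 to -0.12, adjusted p = 0.173). Over the 34 tested complex I members the median log2 difference was 0.0058 with F11 and -0.073 with F12, with 17 and 26 members below 0.

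Complex II has a catalytic pair and a pair of membrane anchors that bind ubiquinone. Beside SDHA, the anchor SDHC had 489 and 562 with F11, 570.4 and 493 with F12 and 469 and 541 with NS, with the groups overlapping (log2 difference 0.06, 95% interval -0.19 to 0.31 with F11 and 0.07, -0.18 to 0.33, with F12). The dimmer SDHC probe gave estimates of opposite sign, -0.04 with F11 and -0.16 with F12, and neither passed. At that probe both F12 arrays (161 and 174) were below both NS arrays (181 and 194). The anchor SDHD had 662 and 379 with F11, 399 and 462 with F12 and 577 and 463 with NS. The 2 F11 arrays were the highest and the lowest of the 6, so the F11 estimate of -0.05 has a 95% interval of -0.61 to 0.52. That interval extends past 1.5-fold on the lower side.

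In complex III, the core proteins UQCRC1 and UQCRC2 form the matrix side of the complex. UQCRC1 had 666 and 733 with F11, 609 and 599 with F12 and 536 and 609 with NS. Its F11 arrays were above both NS arrays (log2 difference 0.29, 95% interval 0.10 to 0.48, adjusted p = 0.136), and the F12 estimate was 0.08. UQCRC2 had 533 and 423 with F11, 396 and 439.5 with F12 and 476 and 441 with NS, and its F11 arrays spanned the NS arrays. UQCRB had 886 and 951 with F11, 875 and 947 with F12 and 1035 and 987 with NS at its brightest probe. There all 4 SHMT1 shRNA arrays were below NS by a small margin (log2 difference -0.14, 95% interval -0.28 to -0.01 in the average, adjusted p = 0.472). At the dimmer UQCRB probes the SHMT1 shRNA arrays overlapped the NS arrays, with averaged log2 differences of -0.024 and -0.022. UQCRH, the hinge protein, gave 6423 and 6945 with F11, 6384 and 6261 with F12 and 6762 and 6779 with NS. UQCRQ gave 4285 and 4564 with F11, 4073 and 4141 with F12 and 4199 and 4404 with NS. Neither passed, with F11 and F12 estimates of -0.02 and -0.10 for UQCRH and 0.04 and -0.07 for UQCRQ. The small subunit UQCR10 read 291 and 321 with F11, 284 and 283 with F12 and 299 and 297 with NS. UQCR11 read 117 and 126 with F11, 131 and 128 with F12 and 122 and 124 with NS, and its F12 arrays were the highest by a small margin (log2 difference 0.07, 95% interval -0.07 to 0.22). The 9 tested members had a median log2 difference of -0.020 with F11 and -0.078 with F12.

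In complex IV, no member passed in any comparison. COX7C gave 8461 and 7078 with F11, 7842 and 8169 with F12 and 8054 and 7872 with NS, with the NS arrays inside the range of the F11 arrays. COX6C gave 6139 and 5968 with F11, 6695 and 6622 with F12 and 6749 and 6593 with NS, and both F11 arrays were the lowest (log2 difference -0.14, 95% interval -0.27 to -0.01, adjusted p = 0.282). COX7A2 gave 5183 and 5156 with F11, 4604 and 5086 with F12 and 5452 and 5479.9 with NS, with all 4 SHMT1 shRNA arrays below both NS arrays (log2 difference -0.13, 95% interval -0.26 to 0.00 in the average, adjusted p = 0.502). COX7A2L, which joins complexes III and IV, had 1466 and 1515 with F11, 1331 and 1466 with F12 and 1628 and 1510.1 with NS. COX7B had 1267 and 931 with F11, 884 and 993 with F12 and 1280.3 and 1088 with NS, and its F12 estimate of -0.33 had a wide interval of -0.68 to 0.02. COX8A had 4694 and 4910.0 with F11, 4110.1 and 4049 with F12 and 4073 and 4508 with NS, with both F11 arrays above NS (log2 difference 0.16, 95% interval 0.01 to 0.32, adjusted p = 0.31). The 11 tested members had a median log2 difference of -0.041 with F11 and -0.051 with F12.

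Over the 57 tested members, the F12 values leaned below NS more than those of genes in general, by a small amount. The median log2 difference with F12 was -0.071, against 0.0019 over all tested genes and 0.014 over the 1298 tested genes with a mean intensity over 1000. With F11 it was -0.0075, against 0.0050 and 0.00074, and in the average -0.031, against 0.0056 and 0.010. With F12, 43 of 57 members were below 0 (75.4%), against 49.3% of all tested genes. With F11, 31 members were (54.4%), against 48.1%, and in the average 42 (73.7%), against 47.4%. Members of 1 chain are not replicates of each other, and these medians carry no test. Their size also moved when single arrays were left out. The F11 median changed sign, and the F12 and averaged medians stayed below 0. The F12 median was -0.042 without F12 replicate 2. The F11 median was 0.032 without F11 replicate 1 and -0.031 without F11 replicate 2. The averaged median was -0.017 without F11 replicate 1, -0.048 without F11 replicate 2 and -0.047 without NS replicate 1.

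Counted by array, both F12 arrays were below both NS arrays in 25 members (43.9%), against 22.9% of all tested genes, and above them in 2 (3.51%), SDHA and UQCR11, against 23.9%. UQCR11 lies close to background. Both F11 arrays were below both NS arrays in 9 members (15.8%), against 20.3%, and above in 5 (8.77%), COX8A, NDUFA10, NDUFA13, SDHA and UQCRC1, against 24.4%. All 4 SHMT1 shRNA arrays were below both NS arrays in 6 members (10.5%), COX7A2, NDUFA1, NDUFA6, NDUFB3, NDUFS4 and UQCRB, against 7.3% of all genes. They were above in 1 (1.75%), SDHA, against 8.33%. Each gene was counted at its brightest probe, and the dimmer probes of UQCRB and SDHA did not separate in this way. The lean of F12 below NS thus appears in these counts too, which come from the same 4 arrays as the medians.

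Most members, like most tested genes, had differences bounded within 1.5-fold, a margin that also holds the estimates of both members called with F11. The 95% interval lay within 1.5-fold either way of NS for 54 of 57 members with F11 (94.7%, against 96.0% of all tested genes). The exceptions were NDUFAB1, SDHD and UQCRHL. With F12 the interval did for 52 (91.2%, against 97.3%), with COX7B, NDUFAB1, NDUFC1, NDUFV2 and SDHD outside. In the average it did for 55 (96.5%, against 98.8%), with NDUFAB1 and SDHD outside. The member share was thus a little below that of all tested genes in each comparison with NS.

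**Figure D3:**
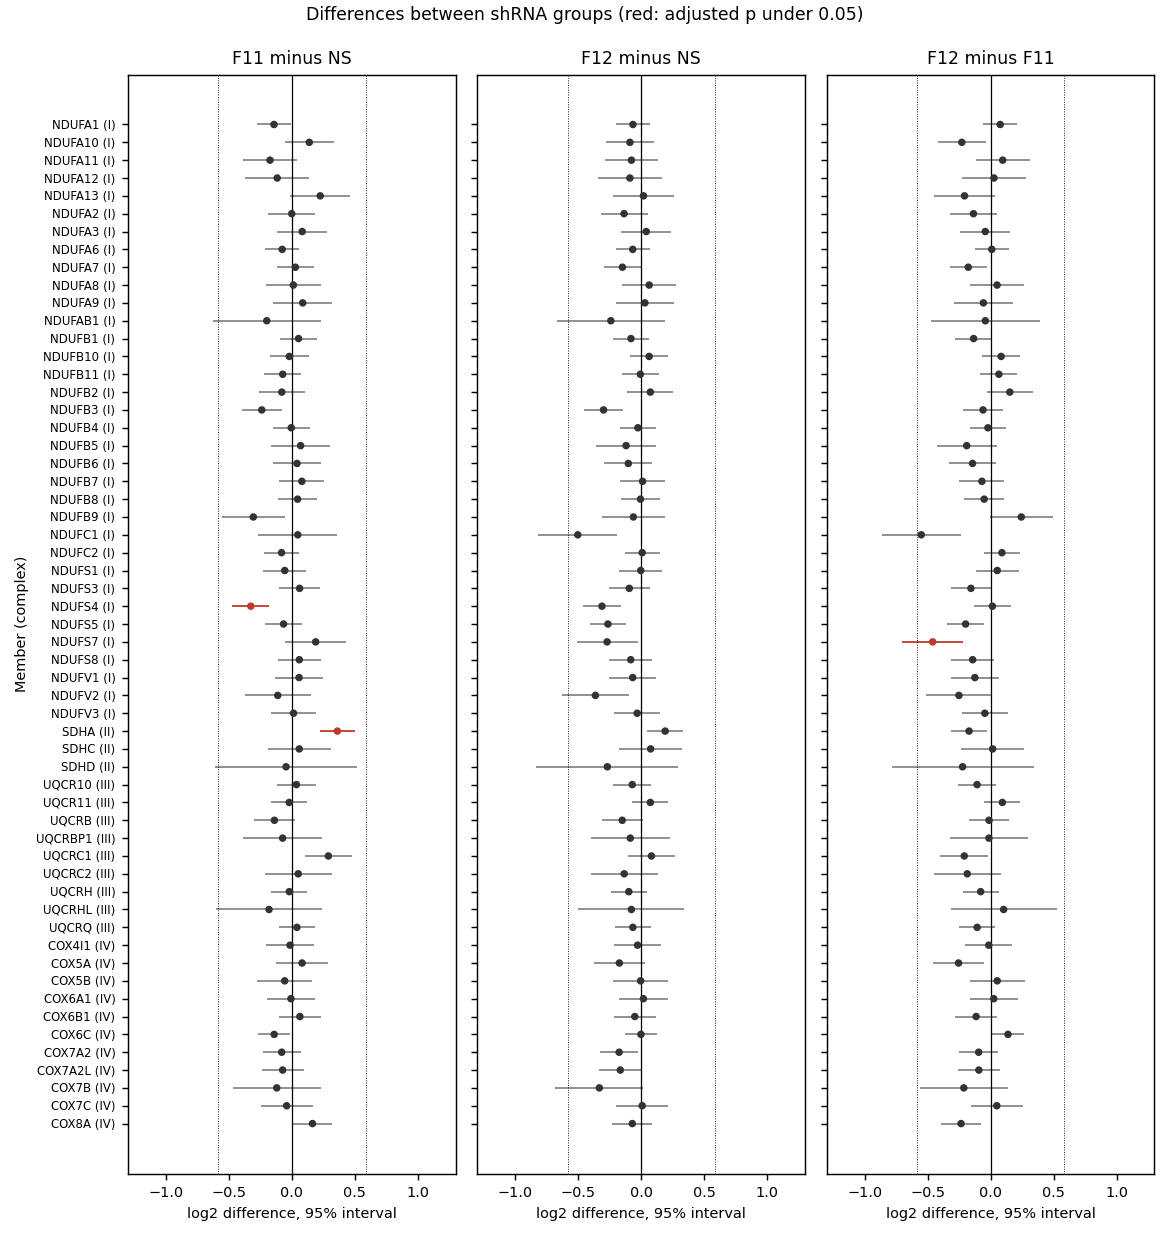
Log2 difference (points) and 95% interval (lines) of the 57 tested members, for F11 minus NS, F12 minus NS and F12 minus F11, with dotted lines at 1.5-fold either way and red for an adjusted p under 0.05. SDHA and NDUFS4 are red in F11 minus NS and NDUFS7 in F12 minus F11. SDHD and NDUFAB1 have among the widest intervals.

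Between the shRNAs, 1 member passed. NDUFS7, a core subunit of complex I that holds the last iron-sulfur cluster before ubiquinone, was lower with F12 than with F11. It had 382 and 335 with F12 and 466 and 519.9 with F11, beside 398 and 468 with NS. Both F12 arrays were the lowest and 1 F11 array the highest of the 6. The ratio of F12 to F11 was 0.73 (log2 difference -0.46, standard error 0.103, adjusted p = 0.0478). Against NS the estimates had opposite signs, 0.19 for F11 (adjusted p = 0.47) but -0.27 for F12 (adjusted p = 0.387), and neither passed. The difference kept an adjusted p under the threshold without F11 replicate 1 (0.0417) and lost it without F11 replicate 2 (0.0914), F12 replicate 1 (0.135), F12 replicate 2 (0.295) or either NS array (0.0516 each).

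The 1 member called, 1.75% of 57, compares with 7.6% of all tested genes, 3.45% higher and 4.15% lower. NDUFC1, with 253 and 276 with F12, against 447 and 335 with F11, had a larger estimate of -0.55 (95% interval -0.87 to -0.24) and did not pass (adjusted p = 0.0617, and 0.0047 without F11 replicate 2). COX5A, a nuclear subunit of complex IV, had 3132 and 3180.1 with F12 and 4098 and 3461 with F11, beside 3686 and 3437 with NS, and its F12 arrays were below both F11 arrays at an estimate of -0.26 (adjusted p = 0.154, and 0.0258 without F11 replicate 2). Both F12 arrays were below both F11 arrays in 22 members (38.6%), against 26.9% of all tested genes, and above in 8 of 57, against 24.5%. At an unadjusted p under 0.05, the split was 1 higher member to 9 lower (1.75% and 15.8%), against 11.1% and 13.2%. The median was -0.061, against -0.0022 over all tested genes, with 38 members below 0 (66.7%), against 50.8%, and it was -0.105 without F11 replicate 1 and -0.034 without F11 replicate 2. The interval lay within 1.5-fold for 54 members (94.7%), against 93.6%, with NDUFC1, NDUFS7 and SDHD outside.

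With F11 and NS, the members had a wider spread between replicate arrays than all tested genes, and with F12 a similar one. The spread was close to that of bright genes, although some members, SDHD and NDUFC1 among them, were not bright by that measure. The median absolute difference between replicates 1 and 2 was 0.125 on the log2 scale over the 57 members with F11, against 0.132 over the 1298 tested genes with a mean intensity over 1000 and 0.0885 over all tested genes. With F12 it was 0.0669, against 0.0700 and 0.0658, and with NS 0.0972, against 0.0876 and 0.0740. With F11, 9 members (15.8%) differed by over 0.3 between replicates, against 12.3% of the bright genes and 6.98% of all tested genes. The largest F11 differences, replicate 1 minus replicate 2, were SDHD at 0.81, NDUFAB1, the mitochondrial acyl carrier protein that also serves in complex I, at 0.61, UQCRHL at 0.51, COX7B at 0.44 and NDUFC1 at 0.41. NDUFAB1 read 1792 and 1172 with F11, 1283 and 1544 with F12 and 1692 and 1636 with NS. The dimmer UQCRH probe read 677 and 423 with F11, 387 and 449 with F12 and 561 and 425 with NS, with the same array of F11 highest as for SDHD, while the brighter UQCRH probe did not spread in that way. Over the 57 members the F11 and NS replicate differences correlated with r = 0.606, the F12 and NS ones with r = -0.617 and the F12 and F11 ones with r = -0.561. Over all probes these were 0.455, -0.291 and -0.309. Replicate 1 of F11 and of NS thus deviated together in the members and replicate 1 of F12 the other way, and the points share arrays and normalization. The cause was not tested.

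**Figure D4:**
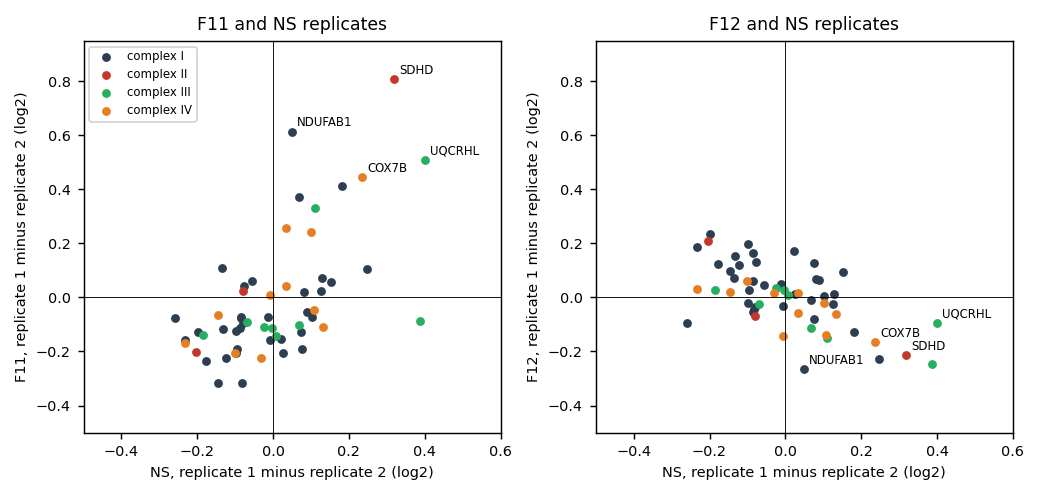
Replicate 1 minus replicate 2 on the log2 scale for each of the 57 tested members, with F11 (left) and F12 (right) on the vertical axis and NS on the horizontal axis, coloured by complex. Points rise to the right for F11, where SDHD stands at 0.81 with F11 and 0.32 with NS, and fall to the right for F12.

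Among genes that build, feed or regulate the chain, 3 passed with F11 and 1 with F12 against NS. The ATP synthase list was taken by the symbol prefix ATP5, and holds the inhibitor gene ATP5IF1 and ATP5F1EP2, a pseudogene by its symbol. Of its 19 tested genes, 1 was lower with F11 (5.26%, against 1.75% of all tested genes) and 0 passed with F12 (limma). The 1 was ATP5MK, a small subunit of the membrane sector, which read 425 and 475 with F11, 524 and 525 with F12 and 562 and 614 with NS (log2 difference -0.39, standard error 0.0754, adjusted p = 0.0481 with F11). Its F11 arrays were the lowest of the 6 and its F12 arrays lay between. Of 79 tested mitochondrial ribosomal protein genes, MRPS25 was higher (log2 difference 0.34, adjusted p = 0.0357) and MRPL33 lower (-0.36, adjusted p = 0.0357) with F11 than with NS. MRPL42 was lower with F12 (-0.38, adjusted p = 0.0384). Each of these was 1.27% of the list, against 1.82% of all tested genes higher and 1.75% lower with F11 and 0.543% lower with F12. These 4 calls were lost without either NS array. They did not depend on the NS arrays alone. MRPL33 was lost with any array left out. ATP5MK and MRPS25 were also lost without either F12 array or without 1 F11 array, and MRPL42 without either F12 array. None of the 15 tested complex I assembly genes, 4 complex II assembly genes, 18 electron carriers and other genes of complexes III and IV, 13 regulators and 12 genes of the tricarboxylic acid cycle passed with F11 or F12 in limma. No probe matched the mitochondrial genome list. The medians with F11 and F12 were -0.079 and -0.072 for ATP synthase, -0.026 and -0.10 for the mitochondrial ribosome, 0.013 and -0.035 for complex I assembly, 0.058 and -0.24 for complex II assembly, 0.023 and -0.071 for the electron carriers and other genes of complexes III and IV, 0.020 and 0.0073 for the regulators, and 0.087 and 0.019 for the tricarboxylic acid cycle.

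Between the shRNAs more genes passed, in these lists as over all tested genes, of which 3.45% were higher and 4.15% lower with F12 than with F11. In complex I assembly 3 of 15 were lower. They were NDUFAF2, NDUFAF7 and ECSIT. NDUFAF2, which helps to join the NADH-oxidizing arm to complex I, had 553 and 534 with F12 and 937 and 786 with F11, beside 750.5 and 767 with NS. Both F12 arrays were far below the other 4 (log2 difference -0.66, standard error 0.0865, adjusted p = 0.00679). NDUFAF7 had a log2 difference of -0.31 (adjusted p = 0.0312) and ECSIT of -0.33 (adjusted p = 0.0432). The other lists had 2 lower of 19 in ATP synthase (10.5%), 1 of 18 electron carriers and other genes of complexes III and IV (5.56%), 1 of 12 in the tricarboxylic acid cycle (8.33%) and 1 of 13 regulators (7.69%), so that some of these shares are a single gene. These were ATP5MC1, a subunit c gene of ATP synthase (-0.50, adjusted p = 0.0235), ATP5F1D, its delta subunit (-0.32, adjusted p = 0.0394), COX10, which makes the heme of complex IV (-0.33, adjusted p = 0.0211), CS, the citrate synthase (-0.28, adjusted p = 0.0473), and the transcription factor MYC (-0.48, adjusted p = 0.0194). In the mitochondrial ribosome 7 of 79 were lower (8.86%) and 2 higher (2.53%) with F12 than with F11, the strongest being MRPS2 (-0.48, adjusted p = 0.00609), MRPL2 (-0.54, adjusted p = 0.0075) and MRPL42 (-0.35, adjusted p = 0.0144). All these calls between the shRNAs were lost without F12 replicate 1 or without F12 replicate 2. Some depended on further arrays. CS was lost with any array left out. NDUFAF7, ECSIT and ATP5F1D were also lost without either NS array or without 1 F11 array, and COX10 without F11 replicate 1.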

How the data were processed

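RNA of PEO4 cells was hybridized to 6 Illumina HumanHT-12 arrays, 2 for each of F11, F12 and NS as the labels name them. The authors used GenomeStudio and then lumi for a log2 transformation and quantile normalization. The deposited values are linear intensities, 1 for each probe on each array. The lumi version and any background correction are not given in the sources used here. Another table, of non-normalized signals, has 12 columns that match no sample label and was not used.

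The log2 of these intensities was tested as deposited. The background mode was 85.7, and a probe was tested if at least 2 of the 6 arrays exceeded 91.6, the 95th percentile of background, which left 23062 of 47321. The brightest tested probe stood for each of 12882 genes. Probe brightness served to choose probes, genes to name and the set of bright genes. It was not taken as a measure of expression between genes. All 6 arrays were fitted in limma 3.58.1 under R 4.3.3 (lmFit, eBayes) with 3 residual and 4.27 prior degrees of freedom. Two-sided p-values were adjusted over the tested probes (Benjamini-Hochberg), and an adjusted p under 0.05 was a call, at any fold. Intervals are 95%, unadjusted. The fit was tested on simulated data. Precision is limited by the number of arrays.

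Genes and lists were chosen with earlier results of these data known. Named are members called in any comparison, the 2 brightest and 2 dimmest of each complex, core subunits, tissue-specific paralogs, members whose probes differ in call, the 3 largest differences of each comparison, SHMT1, and up to 3 called genes per pathway list and comparison. Members beyond this rule (NDUFA5, NDUFS6, NDUFA1, NDUFA6, NDUFA10, NDUFA13, NDUFAB1, NDUFB1, UQCRB and UQCRHL) were named after their values were seen. Alternatives were no filter, a stricter filter, normexp background correction with an offset of 16, median centring, the replicate number as a block, an intensity trend with robust eBayes, only the compared groups, any tested probe, unadjusted p-values, and each array left out.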

Additional observations from a re-analysis of the deposited data

Results flagged for a closer look

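The effects of the 2 SHMT1 shRNAs differed for NDUFS7 by the test between them, with a log2 difference of F12 minus F11 of -0.46 (adjusted p = 0.0478, limma). The intensities were 382 and 335 with F12 and 466 and 519.9 with F11, beside 398 and 468 with NS. Both F12 arrays were below both F11 arrays, and the estimates against NS had opposite signs. The call held in 4 and was lost in 9 of the other settings run for it. It was lost with normexp (adjusted p = 0.0522), the replicate block (0.070), no filter (0.0531), only the F12 and F11 arrays or without either NS array (0.0516 each), and without F11 replicate 2 (0.0914), F12 replicate 1 (0.135) or F12 replicate 2 (0.295).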

How the results depend on the processing

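With 2 arrays a group the calls depended on the settings, and the medians moved by less than the replicate spread and kept their sign, except that the F11 median turned positive without F11 replicate 1. The 2 members called with F11 became 1 under the stricter filter, and 0 with normexp, the intensity trend or only the compared groups, and 8 at an unadjusted p. The 0 with F12 became 2 with only the compared groups and 9 unadjusted, and the 0 in the average 7 unadjusted. The 1 between F12 and F11 became 0 without a filter or with only the compared groups, 2 with the trend and 10 unadjusted. With normexp it stayed at 1, which was NDUFC1 in place of NDUFS7. Leaving out each array gave 0 to 0 called members with F11, 0 to 2 with F12, 0 to 1 in the average and 0 to 4 between F12 and F11. The medians then ranged over -0.031 to 0.032 with F11, -0.075 to -0.042 with F12, -0.048 to -0.017 in the average and -0.105 to -0.034 between F12 and F11. The share of all tested genes called under each of these other settings is not given here, apart from the unadjusted one. The counts therefore describe the settings and are not a result about the members. Why the calls moved was not tested.

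The labels do not tie a replicate number to a shared culture or batch, and the numbers were not taken as pairs. The F12 replicate differences ran against those of NS and F11 (r = -0.291 and -0.309 over all probes, against 0.455 between F11 and NS), and whether arrays of different groups share a batch was not tested. With the replicate block 0 members passed with F11, 0 with F12, 0 in the average and 0 between F12 and F11. With the F12 numbers crossed, chosen after seeing the data, the block gave 4, 5, 3 and 6. The share of all tested genes called with either block is not given here. These counts are therefore not a result about the members.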
